A study of Mus musculus with 48 samples.

Results

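Enteroendocrine hormone genes were described here in the villi of the mouse small intestine after Roux-en-Y gastric bypass (RYGB), an operation that joins a small gastric pouch to the jejunum. The genes are the hormone precursors Gcg, Gip, Cck, Sct, Nts, Sst, Pyy and Ghrl and the granins Chga and Chgb. They were found by gene symbol, with 1 entry for each Ensembl gene, in the tables of the duodenum, jejunum and ileum. All 10 were listed in each of the 3 tables, among 10907 genes in the duodenum, 11021 in the jejunum and 10777 in the ileum (11225 genes listed in at least 1 of them), so none was absent for low expression. Values are in CPM, which scale each library's reads on a gene to a common library total, and a table lists only genes that reach 1 CPM in a number of libraries equal to the size of the segment's smaller group (3, 3 and 5).

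The mice were male C57Bl6 animals made obese on a high fat diet. They had RYGB or a sham operation and were then kept on an elemental liquid diet, and both groups were fasted overnight and killed in the morning of day 9. The villi were loosened with cold EDTA and scraped off, and their mRNA was sequenced with a stranded kit. For the duodenum and for the jejunum there were 3 libraries after RYGB and 4 after sham, and for the ileum 5 after each, together 24 of the 48 libraries of the series. Limits of the model follow from the labels, which name the segment but not which limb of the bypassed jejunum was taken, and which are silent on whether sham mice were matched for weight. They number the libraries of a group without saying whether mice with the same number were shared between segments. P values measure the spread between these libraries.

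Enteroendocrine cells are scattered single hormone-producing cells of the gut epithelium. They sense nutrients at their apical surface and release peptides from dense core granules toward the blood and neighboring cells. Different hormones prevail at different heights of the intestine, with cholecystokinin, secretin and GIP known best from the proximal part and neurotensin, PYY and GLP-1 from the distal part. Somatostatin, made by D cells, restrains the release of many other hormones. In RNA from scraped villi, fewer cells of a type and less RNA per cell cannot be told apart.

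Sst was the only one of the 10 genes that passed the test in any segment (an adjusted p under 0.05 and a change of at least 1.5 times), and it was lower after RYGB in the jejunum and in the ileum. In the jejunum the RYGB libraries held 9.2, 5.5 and 12 CPM and the sham libraries 22.7, 21.9, 22.5 and 43.5 CPM. Every RYGB library was below every sham library, and sham replicate 4 stood above the rest of its group. The means were 8.9 ± 3.26 CPM (SD, n = 3) and 27.7 ± 10.6 CPM (SD, n = 4). The log2 fold change was -1.53 (SE 0.31, adjusted p = 0.0146, limma with Benjamini-Hochberg adjustment over all genes), or 2.88-fold lower after RYGB on the log2(CPM + 1) scale. The jejunal call rested on RYGB replicate 2, the only jejunal library from sequencing lane 2. Without it the log2 fold change was -1.25 and the adjusted p 0.0556 (limma). With lane as a covariate the adjusted p was 0.0576 (limma).

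In the ileum Sst reached 17, 13.3, 13.4, 15.2 and 9.6 CPM after RYGB and 19.1, 19.5, 22.5, 24.2 and 26.8 CPM after sham. Again no RYGB library reached the lowest sham library, although RYGB replicate 1 came near it. The means were 13.7 ± 2.75 and 22.4 ± 3.24 CPM (SD, n = 5 each), and the log2 fold change was -0.68 (SE 0.16, adjusted p = 0.0274, limma). The ileal call was lost without RYGB replicate 2, sham replicate 3, sham replicate 4 or sham replicate 5, with adjusted p values of 0.0644, 0.0698, 0.0599 and 0.0685 (limma), and without RYGB replicate 5, where the log2 fold change of -0.57 no longer reached 1.5 times. With the replicate number as a block the adjusted p was 0.0665 (limma). The ileal RYGB libraries were all from lane 1 and the ileal sham libraries from lanes 2 and 3, so the lane and the operation cannot be told apart here.

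In the duodenum Sst was at 51, 28 and 39.3 CPM after RYGB and at 31.7, 29.1, 24.6 and 45.5 CPM after sham. The groups overlapped widely. The log2 fold change of 0.26 had a 95% interval from -0.32 to 0.83 and an adjusted p of 0.610 (limma). Whether the change differed between segments was not tested, because the tables were normalized separately.

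**Figure D1:**
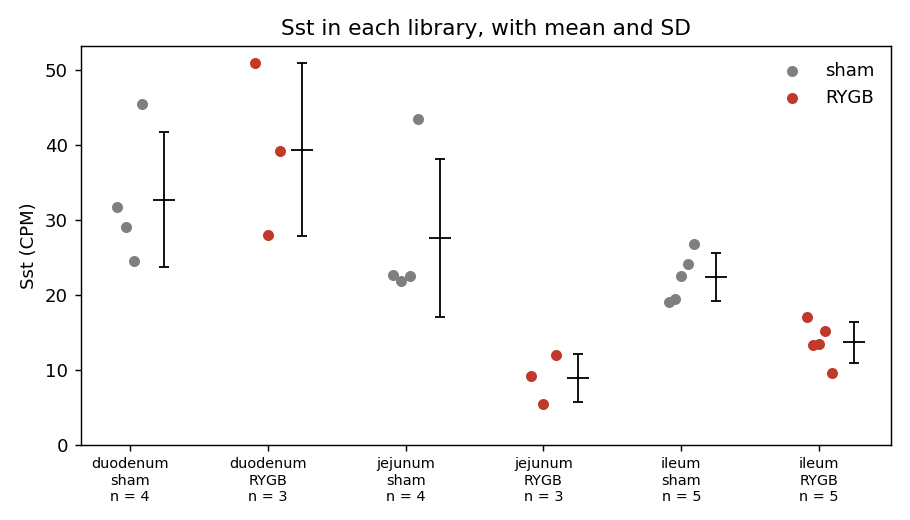
Sst in CPM (vertical axis, from 0) in each of the 24 intestinal libraries, by segment and surgery, with gray points for sham, red points for RYGB and black bars for the mean and SD. The RYGB points lie below all sham points in the jejunum (5.5 to 12 against 21.9 to 43.5 CPM) and in the ileum (9.6 to 17 against 19.1 to 26.8 CPM) and overlap with them in the duodenum.

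The background of calls has to be read beside these counts. In the jejunum 9.75% of the 10854 genes tested were called and 5.13% were called lower, against 1 of the 10 hormone genes. The libraries of RYGB and sham did not overlap for 22.2% of all jejunal genes and for 1 of the 10. In the ileum 6.05% of the 10735 genes tested were called and 4.42% were called lower, against 1 of the 10, and 9.34% of all genes had groups that did not overlap, again against 1 of the 10. In the duodenum 0.00922% were called, which was 1 gene of 10850 and a lower one (0.00922% called lower), against 0 of the 10, while 15.6% of all genes and none of the 10 had groups that did not overlap. With 10 genes, 1 call stands near these shares, and nothing particular to the hormone genes can be read from the counts. With no adjustment, p was under 0.05 for 0 of the 10 in the duodenum, 2 in the jejunum (Sst and Nts) and 3 in the ileum (Sst, Gip and Ghrl), beside 2040, 2667 and 2842 of all genes. The median log2 fold change of the 10 genes was 0.16, -0.34 and -0.11 in the 3 segments, beside 0.12, -0.04 and -0.09 over all genes tested.

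**Figure D2:**
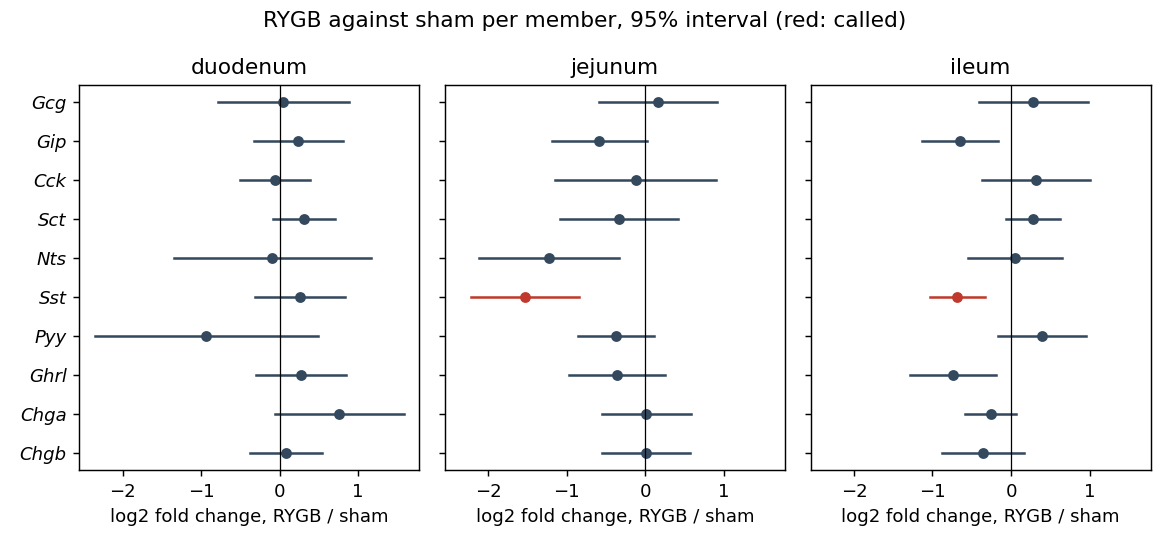
Log2 fold change of RYGB over sham (horizontal axis, on the log2(CPM + 1) scale) for the 10 genes in the duodenum, jejunum and ileum, with 95% intervals from limma and the called gene in red. Sst at -1.53 in the jejunum and -0.68 in the ileum is red, and the intervals of Nts in the jejunum and of Gip and Ghrl in the ileum also lie below 0.

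Chga and Chgb encode the acidic granins that are packed into the granules of most enteroendocrine cells. Jejunal Chga was at 59.8, 39.3 and 82 CPM after RYGB and at 46.8, 53, 59.2 and 73.2 CPM after sham. Jejunal Chgb was at 131, 95.6 and 183.5 CPM after RYGB and at 100.3, 174.1, 128.6 and 131.4 CPM after sham. Both overlapped, with log2 fold changes of 0.01 (95% interval -0.56 to 0.58) and 0.01 (-0.55 to 0.57). In the ileum Chga had a log2 fold change of -0.26 (-0.58 to 0.06, adjusted p = 0.283, limma) and Chgb of -0.35 (-0.88 to 0.17, adjusted p = 0.373, limma). Ileal Chgb was at 82.3, 78.9, 86.9, 139.2 and 41.1 CPM after RYGB and at 90.6, 99.6, 102.9, 108.4 and 111.6 CPM after sham, so 4 of the 5 RYGB libraries lay below the sham range and RYGB replicate 4 lay above it.

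The ratio of Sst to the sum of Chga and Chgb within a library was chosen after the values had been seen and is given as a description. In the jejunum it was 0.0482, 0.0408 and 0.0452 after RYGB and 0.154, 0.0964, 0.120 and 0.213 after sham. No RYGB library came near the sham libraries. In the ileum it ranged from 0.0747 to 0.127 after RYGB and from 0.119 to 0.156 after sham, which overlapped through RYGB replicate 1. The duodenal ratio ranged from 0.110 to 0.150 and from 0.0940 to 0.142.

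**Figure D3:**
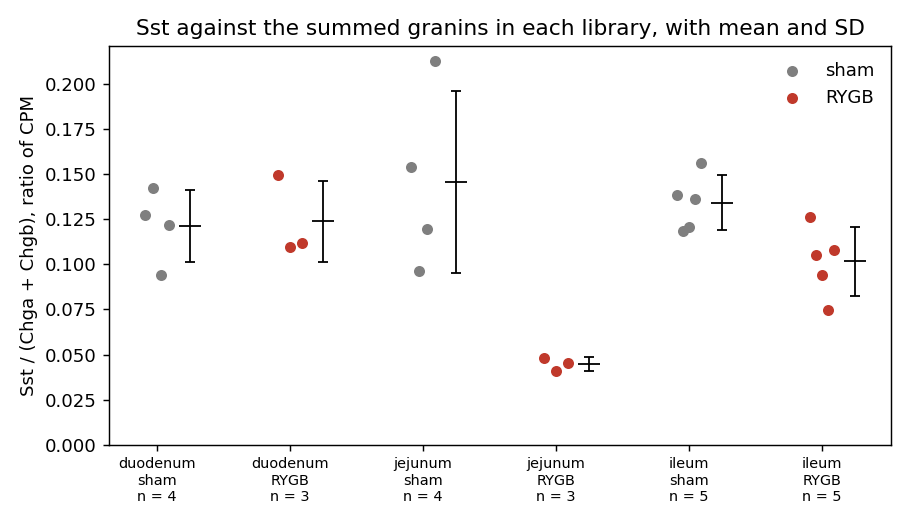
Ratio of Sst to Chga plus Chgb within each library (vertical axis, ratio of CPM, from 0), by segment and surgery, with gray points for sham, red points for RYGB and black bars for the mean and SD. The jejunal RYGB points sit together at 0.0408 to 0.0482, below the sham points at 0.0964 to 0.213.

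Chga in the duodenum was at 100.8, 76.6 and 85.7 CPM after RYGB and at 37.8, 37.8, 43.1 and 110.6 CPM after sham. Only sham replicate 4 kept the groups from separating, and it was the highest of all 7 libraries. The log2 fold change was 0.76 (SE 0.36, 95% interval -0.07 to 1.58, adjusted p = 0.295, limma). Without sham replicate 4 it was 1.12 and called (adjusted p = 0.0162, limma). The replicate block gave the same 1.12 and a call (adjusted p = 0.0407, limma), since no duodenal RYGB library has the number 4. It thus left sham replicate 4 out of the fold change and was no separate check. The gain was general, since the calls over all duodenal genes went from 1 to 757 of 10854 without this library and to 268 with the block. Duodenal Chgb, at 239.6, 178.5 and 265.2 CPM after RYGB and 211.3, 166.8, 218.6 and 263.1 CPM after sham, did not show this separation (log2 fold change 0.08, 95% interval -0.37 to 0.54). The summed level of the 6 immune cell markers listed of 10 (Ptprc, Cd3e and Cd8a among them) followed Chga here, although none of the 6 was called and Itgam had a log2 fold change of 0.03. The sum was 136.2, 57.3 and 89.2 CPM after RYGB and 33.8, 29.7, 26.5 and 62.5 CPM after sham, with sham replicate 4 the highest sham library in both. The part of these cells in the result was not tested.

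The proximal hormones were not called in any segment. Gip encodes the incretin of K cells, Cck the hormone of I cells that empties the gallbladder, Sct the hormone of S cells that draws bicarbonate from the pancreas, and Ghrl the hunger peptide made mostly in the stomach. Gip in the ileum was at 60.4, 48.2, 39.8, 77.1 and 38.7 CPM after RYGB and at 67.6, 64.9, 85, 72.7 and 127.2 CPM after sham. RYGB replicate 4 lay within the sham range and the other 4 RYGB libraries below it. The log2 fold change was -0.65 (SE 0.22, adjusted p = 0.0869, limma), and the gene was called when RYGB replicate 4 was left out. Over the alternative fits its adjusted p ran from 0.0389 to 0.175 (limma). Calls over all ileal genes also went from 650 to 736 without RYGB replicate 4. Jejunal Gip showed tight RYGB values of 84.3, 72.5 and 72.4 CPM against 82.6, 96.5, 110.1 and 196.8 CPM after sham. Its log2 fold change was -0.58 (95% interval -1.18 to 0.02, adjusted p = 0.217, limma).

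Ghrl in the ileum was at 3.1, 2.6, 2.4, 6.2 and 2.1 CPM after RYGB and at 5.8, 5.8, 6.3, 3.5 and 8.6 CPM after sham. RYGB replicate 4 was again the RYGB library inside the sham range, and sham replicate 4 the lowest of its group. For this gene the log2 fold change was -0.74 (SE 0.25, adjusted p = 0.0893, limma), and it too was called without RYGB replicate 4. Its adjusted p ran from 0.0248 to 0.190 over the alternative fits (limma). Cck and Sct had wider or smaller differences. For Cck the 95% intervals ran from -0.51 to 0.39 in the duodenum, from -1.15 to 0.90 in the jejunum and from -0.37 to 1.01 in the ileum. For Sct they ran from -0.08 to 0.71, from -1.08 to 0.42 and from -0.06 to 0.63.

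Among the distal hormones, Nts, which encodes the neurotensin of N cells, had the largest difference. Jejunal Nts was at 73.6, 26.2 and 22.2 CPM after RYGB and at 93.1, 50, 96.1 and 108.2 CPM after sham. RYGB replicate 1 lay above the lowest sham library, sham replicate 2, and the other 2 RYGB libraries lay below all sham libraries. The log2 fold change was -1.23 (SE 0.40, adjusted p = 0.0865, limma). Leaving out RYGB replicate 1 gave -1.75 and a call (adjusted p = 0.00957, limma), and leaving out sham replicate 2 gave -1.47 and a call (adjusted p = 0.0477, limma). The replicate block gave -1.10 and a call. Leaving out sham replicate 4 gave the same -1.10 with no call (adjusted p = 0.174, limma). In the ileum, where Nts was highest, it was at 212.7, 186.8, 167, 110.4 and 67.2 CPM after RYGB and at 139.3, 164, 153.9, 104.5 and 114.5 CPM after sham. The RYGB libraries spread beyond the sham libraries on both sides, with a log2 fold change of 0.05 (95% interval -0.55 to 0.64).

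Gcg encodes proglucagon, the precursor of GLP-1 in L cells, and Pyy the peptide made in the same cells. Ileal Gcg was at 3.3, 5.4, 1.6, 9 and 5.9 CPM after RYGB and at 3.9, 4.5, 3.6, 1.9 and 4.1 CPM after sham. The RYGB values enclosed the sham values, and the 95% interval of the log2 fold change ran from -0.41 to 0.98 (adjusted p = 0.607, limma). Ileal Pyy was at 9.6, 11.5, 13.8, 7.1 and 8.4 CPM after RYGB and at 5.8, 6.7, 8.6, 13.3 and 4.3 CPM after sham. Its log2 fold change was 0.39 (95% interval -0.17 to 0.96, adjusted p = 0.353, limma), with sham replicate 4 next to the highest library of all 10. Levels this low rest on few units of the deposited rounding of 0.1 CPM, above all for Pyy in the duodenum and jejunum. Duodenal Pyy was at 0.3, 1.1 and 0.9 CPM after RYGB and at 10.5, 2.3, 1.1 and 0.5 CPM after sham, so that its log2 fold change of -0.93 (95% interval -2.35 to 0.49) followed 1 library, sham replicate 1, without which it was -0.33.

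Along the intestine the sham libraries showed a different profile for each hormone. These levels come from tables normalized separately and are given as a description with no test. Nts was higher distally, from a mean of 10.4 ± 5.08 CPM (SD, n = 4) in the duodenum to 86.9 ± 25.4 CPM (SD, n = 4) in the jejunum and 135 ± 25.3 CPM (SD, n = 5) in the ileum. Its duodenal and jejunal libraries did not overlap, and its jejunal and ileal libraries did. Pyy was at 3.6 ± 4.66, 1.75 ± 0.387 and 7.74 ± 3.48 CPM, with the ileum above all jejunal libraries.

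Cck went the other way, with 43.2 ± 3.49, 24.9 ± 15.1 and 5.86 ± 3.52 CPM, and was 7.37-fold higher in the duodenum than in the ileum with no overlap. Ghrl followed the same order, at 18.0 ± 5.12, 12.6 ± 4.22 and 6 ± 1.82 CPM, with the ileum below all jejunal libraries. Chgb was at 215 ± 39.4, 134 ± 30.4 and 103 ± 8.18 CPM, and its duodenal and ileal libraries did not overlap. Gip, Sct, Gcg, Sst and Chga overlapped between all pairs of segments in the sham libraries. For Gcg the order of the sham means was duodenum, jejunum and ileum, at 9.58, 6.15 and 3.6 CPM, but these spreads overlapped. In the RYGB libraries Gip, Cck, Sst and Ghrl were lower and Nts higher in the jejunum than in the duodenum without overlap, which for the first 4 was not the case in the sham libraries. Groups of 3 RYGB libraries separate more easily than groups of 4 sham libraries, and the share over all genes was not computed. The duodenal over the jejunal mean was 2.08 after RYGB and 1.74 after sham for Cck. It was 1.87 and 0.98 for Gip, 4.43 and 1.18 for Sst, and 2.35 and 1.42 for Ghrl.

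**Figure D4:**
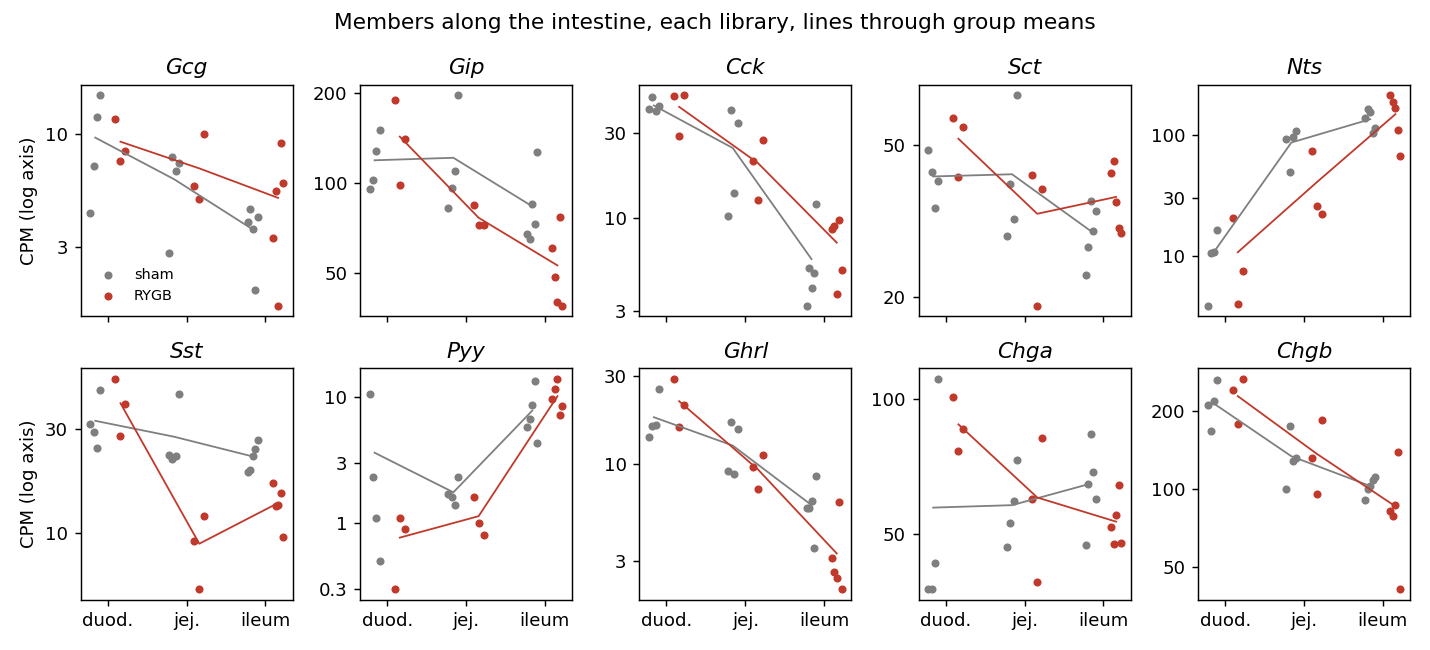
Level of each of the 10 genes in CPM (vertical log axis) in the duodenum, jejunum and ileum, with gray points for sham libraries, red points for RYGB libraries and lines through the group means. The means of Nts go up and those of Cck and Ghrl go down along the intestine in both groups, and the RYGB mean of Sst is lowest in the jejunum, at 8.9 CPM.

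Per kilobase of exon, which allows genes to be compared with each other, Gip was the most abundant of the 10 in the sham duodenum at 173 CPM per kb, followed by Chgb at 78.4, Sct at 64.0, Sst at 45.4 and Cck at 33.1. Chga followed at 20.8, Ghrl at 16.7, Nts at 8.35, Gcg at 6.41 and Pyy at 5.71 CPM per kb. In the sham ileum Gip was at 122 and Nts at 108 CPM per kb, with ranges of 94.5 to 185 and 83.7 to 131 that overlapped. Pyy was at 12.3 and Gcg at 2.41 CPM per kb there. The genes thus spanned more than an order of magnitude in every segment.

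Sst lies on the minus strand of chromosome 16 at chr16:23889573-23890958 (GRCm38, GENCODE M21), with 721 bp of exon sequence. Its promoter is a classic example of regulation by cAMP, which acts through the cAMP response element TGACGTCA. The 250 bases before the transcription start were searched on both strands for this element and for its core TGACG, which the element holds on each strand, in the RefSeq promoters of GRCm38.p6, where all 10 genes had an entry. Of 32851 promoters 1.55% held the full element and 17.8% the core. The full element was found for 2 of the 10 genes, Sst and Chgb, and the core alone for Chga, Cck and Nts. The stretches of 30 bases around these matches are shown because Sst is the called gene and Chgb, which carries the same letters, is the granin it was compared with. Capitals mark the match, and each runs 5′ to 3′ on the strand of its gene.
Sst, chr16:23890874-23890903, minus strand: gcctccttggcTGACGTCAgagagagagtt
Chgb, chr2:132781559-132781588, plus strand: gggctgctccgTGACGTCAgggctgagcga
Chga, chr12:102554885-102554914, plus strand: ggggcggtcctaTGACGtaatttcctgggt
Cck, chr9:121495724-121495753, minus strand: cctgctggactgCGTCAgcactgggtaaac
Nts, chr10:102490567-102490596, minus strand: attagggaagatCGTCActttccatcaagg
The element of Sst covered bases 48 to 41 before its RefSeq start and that of Chgb bases 72 to 65. The GENCODE genes start further upstream, at 23890958 for Sst (minus strand) and 132781278 for Chgb. Both stretches therefore lie within the GENCODE bounds of their genes. Cck and Nts carried the core on the opposite strand. A match of letters is a description of the reference sequence only, and Sst and Chgb, which share the full element, had jejunal log2 fold changes of -1.53 and 0.01.

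Other genes of the enteroendocrine system were taken from lists, which were made with earlier results of these data known. From these lists Neurod1, Insm1, Neurog3, Tph1 and Dpp4 were picked after their values had been seen. Of the 20 genes of granules and prohormone processing that were tested in each segment, none was called in the duodenum, 1 was called in the jejunum and 1 in the ileum. The jejunal gene was Cpe, the carboxypeptidase that trims prohormones, at 41.4, 23.8 and 31.5 CPM after RYGB against 14.7, 16, 18.9 and 16.7 CPM after sham. It was higher without overlap (log2 fold change 0.89, SE 0.22, adjusted p = 0.0307, limma). Cpe and Sst thus passed the test in opposite directions in the same libraries. The ileal gene was Vwa5b2, at 2.6, 2.6, 2.2, 4 and 2.7 CPM after RYGB and at 3.9, 4.8, 6.1, 5.6 and 4.6 CPM after sham, lower by a log2 fold change of -0.66 (adjusted p = 0.0325, limma). In the ileum 19 of the 20 had a log2 fold change below 0 with a list median of -0.34, beside -0.09 for all genes. In the duodenum 19 of the 20 were above 0 with a median of 0.35, beside 0.12 for all genes. Markers of several other cell types lay further above 0 in the same libraries, with none called and medians of 0.67 for 10 goblet, 0.86 for 9 tuft, 1.33 for 6 Paneth, 1.38 for 6 immune and 1.64 for 5 crypt and cycling cell markers. The 10 enterocyte markers had a median of -0.24, with 4 above and 6 below 0. Ret, the 1 enteric neuron and glia marker tested, was at -0.89. The jejunal split of the 20 granule and processing genes was 8 above and 12 below 0.

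Of the transcription factors of the enteroendocrine lineage 15 were tested in the duodenum and the jejunum and 13 in the ileum. None was called in the duodenum or ileum, and 1 was called in the jejunum. This was Foxa1, a forkhead factor that other epithelial cells also use, higher at 13, 40.7 and 12.5 CPM against 5.7, 7.3, 5.3 and 4.5 CPM (log2 fold change 1.59, adjusted p = 0.0277, limma). Its highest value was that of RYGB replicate 2, the library from lane 2. Single calls outside the 10 hormone genes are not given without that library. The lineage factor Neurod1 was at 3.22 CPM after RYGB and 5.08 CPM after sham in the ileum, with a log2 fold change of -0.59 and an adjusted p of 0.131 (limma). Insm1, a zinc finger factor of endocrine differentiation, had an adjusted p of 0.0466 (limma) in the ileum but a log2 fold change of -0.48, short of 1.5 times. There 11 of the 13 factors had a log2 fold change below 0, with a median of -0.33 beside -0.09 for all genes, and 8 had an unadjusted p under 0.05, beside 2842 of the 10735 genes tested. Neurog3, which starts the lineage, was not listed in any of the 3 tables.

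Of other gut peptide and amine genes, 3 of 15 were tested in each segment and 1 was called. Tac1, which encodes substance P and marks a group of serotonin-producing cells, was at 2.5, 5.8 and 4.3 CPM after RYGB in the jejunum and at 0.3, 0.5, 1.5 and 1.4 CPM after sham. It was higher without overlap (log2 fold change 1.44, adjusted p = 0.0201, limma), and highest in RYGB replicate 2. Tph1, the enzyme that makes gut serotonin, was not called there, at 15.2 CPM after RYGB and 14.1 CPM after sham. Nutrient and bile acid receptors gave 1 call among 7 tested in the jejunum, Trpm5, a cation channel of taste signaling that also marks tuft cells. Jejunal Trpm5 rose from 24.9, 30.7, 18.3 and 20.1 CPM after sham to 238.9, 75.3 and 167.7 CPM after RYGB (log2 fold change 2.60, adjusted p = 0.00243, limma). Of the 9 tuft cell markers listed, Trpm5 was the only one called higher in the jejunum and Ltc4s was called lower.

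Enzymes that break down peptide hormones were among the 9 genes of hormone receptors and peptidases tested in each segment. Ace, the angiotensin-converting enzyme of the brush border, was lower in the jejunum, at 966.8, 1641.5 and 1246.1 CPM after RYGB against 4272, 1837, 4138.4 and 2883.4 CPM after sham (log2 fold change -1.31, adjusted p = 0.0308, limma). It was also lower in the ileum (log2 fold change -1.29, adjusted p = 0.00343, limma). In the duodenum Ace went the other way and was not called (log2 fold change 2.17, adjusted p = 0.251, limma). Its duodenal libraries ran from 3062.7 to 3761.1 CPM after RYGB and from 171.8 to 4549.2 CPM after sham. Mme, neprilysin, was called lower in the ileum (log2 fold change -0.76, adjusted p = 0.0216, limma). Dpp4, the enzyme that inactivates GLP-1 and GIP, was not called in any segment, with log2 fold changes of 0.51, 0.09 and -0.45 from duodenum to ileum.

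**Figure D5:**
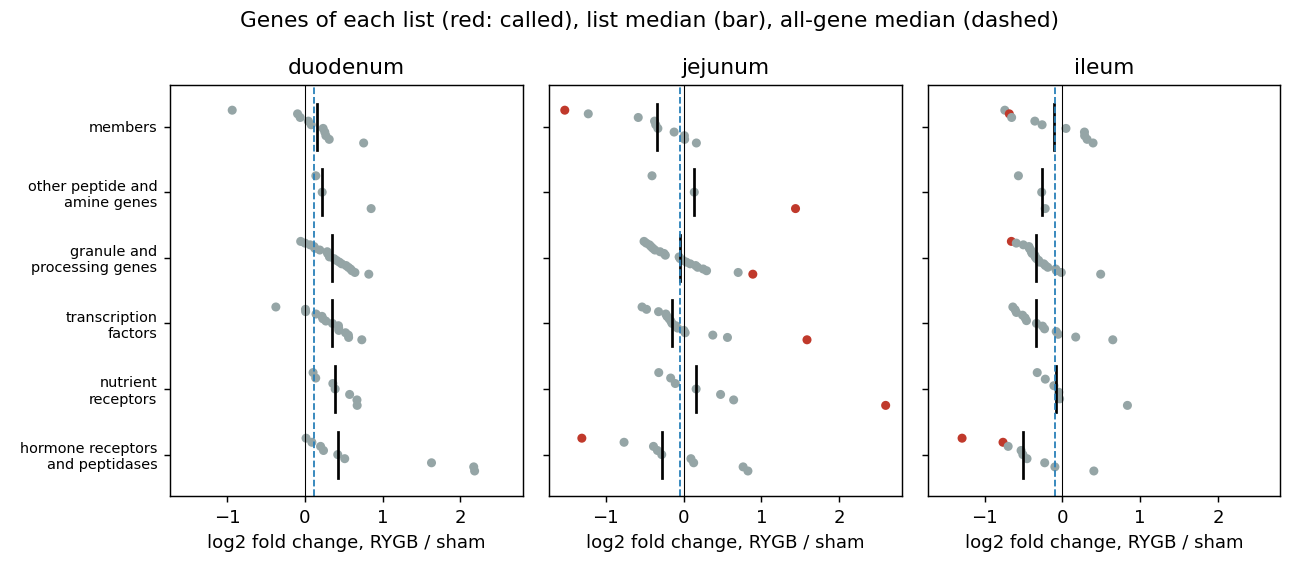
Log2 fold change of RYGB over sham (horizontal axis) for every tested gene of 6 lists in the duodenum, jejunum and ileum, with called genes in red, a black bar at each list's median and a dashed line at the median of all genes. Most granule genes and transcription factors lie above 0 in the duodenum and below 0 in the ileum, and few points are red. Of the markers not drawn, duodenal goblet, tuft, Paneth and immune markers had higher medians (0.67 to 1.38) and enterocyte markers a median of -0.24.

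Markers of segment and of other cell types moved with some of these results, and their part was not tested. Cubn, the receptor that takes up vitamin B12 in the distal small intestine, was at 37.8, 5 and 5.1 CPM in the jejunum after RYGB and at 893.3, 342.2, 863.7 and 421.8 CPM after sham, so the jejunal groups that differed in Sst also differed in this marker. Within the duodenal sham libraries Cubn ran from 6.1 to 366.8 CPM and Pdx1, a factor of the proximal gut, from 14.5 to 159.9 CPM, with sham replicates 1 and 4 at opposite ends of both. Without these 2 libraries Chga was called in the duodenum. In the ileum the proximal factor Onecut2 was at 1.2 to 7.2 CPM after RYGB and at 6.2 to 26.9 CPM after sham. Fabp6, which defines ileal enterocytes, was listed only in the ileum, but it was at 0 in 2 sham libraries and at most at 50.5 CPM, and the ileal bile acid transporter Slc10a2 was at 0.2 to 2.5 CPM after sham and at 1.6 to 53.7 CPM after RYGB. The genes that define the ileum were thus low or at 0 in part of the libraries labelled ileum.

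Among other cell types, 4 of the 6 Paneth cell markers tested were called higher in the jejunum (Lyz1 and Mmp7 among them) and 0 of 7 in the ileum. Each of the 4 was highest in jejunal RYGB replicate 2, the library from lane 2. Of the 10 goblet cell markers only Clca1 and Spink4 were called, higher in both segments. In the jejunum 8 of the 10 lay above and 2 below 0 (median 0.53), and in the ileum 7 above and 3 below (median 0.16). Of the 10 enterocyte markers Lct was called lower in both segments. Apoa4 was called lower in the jejunum as well (log2 fold change -1.47, adjusted p = 0.0337, limma). There 2 of the 10 lay above and 8 below 0 (median -0.45). Enterocyte markers had no common direction in the ileum, where Fabp1 was called higher (log2 fold change 1.25, adjusted p = 0.0391, limma) and 5 lay above and 5 below 0. Of the 6 immune cell markers tested, the leukocyte gene Ptprc and the T cell genes Cd3e and Cd8a were called lower in both segments. The myeloid genes Itgam, Lyz2 and Csf1r were not called, with log2 fold changes of 0.66, 0.35 and 0.19 in the jejunum and 0.32, 0.12 and -0.10 in the ileum. The summed immune markers ran from 30.8 to 48.5 CPM after RYGB and from 53.2 to 64.3 CPM after sham in the jejunum, and from 21.2 to 47.8 and 42.8 to 81.6 CPM in the ileum. None of the 10 gastric and Brunner gland markers was listed in any segment. Of 10 pancreatic markers 1 was listed in the duodenum and jejunum and none in the ileum. A marker that reached 1 CPM in fewer libraries than the smaller group holds would not be listed. In duodenal sham replicate 2 the listed genes summed to 925122 CPM, and the signal of unlisted genes is not seen. Carry-over of stomach or pancreas was not tested.

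Over the 24 libraries, after the mean of each segment and surgery group was subtracted, the genes whose log2(CPM + 1) was most like that of Chga were Acap1 (Pearson r 0.79), Rinl (0.79), Rac2 (0.79), Dennd1c (0.78) and Nrgn (0.78), among 10449 genes. Rac2 is a GTPase of blood cells. Of the hormone genes Sst was the closest to Chga (r 0.71, rank 35), followed by Chgb (0.54) and Ghrl (0.54), and Pyy had the opposite sign (-0.37). The closest pairs among the 10 genes were Sst with Sct (0.76), Ghrl with Gip (0.74) and Sst with Gip (0.72). These values describe libraries that share a tissue table and may share mice, and they carry no test.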

How the data were processed

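The villi libraries of 3 intestinal segments were analysed. The values deposited by the authors are a signal in CPM, rounded to 0.1, with 1 table for each segment. Per the labels, HTSeq and GRCm38 were used, and the aligner and annotation are not given in the sources used here. Repeated lines of a gene (298, 359 and 326) held equal values and were counted once. The share of mitochondrially encoded genes was 2.83% to 16.7% of listed CPM. Total counts are not part of the tables, so depth is unknown and no interval or floor from counts was computed.

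RYGB was compared with sham within a segment by limma 3.58.1 (R 4.3.3, empirical Bayes with a trend) on log2(CPM + 1), for every gene whose mean over the segment's libraries was 1 CPM or more, with Benjamini-Hochberg adjustment over all genes of the segment. The pseudocount of 1 understates changes of low genes. The method was tested on simulated data. The 10 genes and all lists were chosen with earlier results of these data known. All 10 genes are named in every segment, of other lists up to 4 called genes, and Neurod1, Insm1, Neurog3, Tph1, Dpp4, Itgam, Lyz2, Csf1r, Fabp1 and the segment markers were chosen after their values were seen. Tables and figures used Python 3.11.15, pandas 2.3.3, numpy 2.4.6 and matplotlib 3.10.9. The labels do not say that equal numbers pair mice, so the numbers were not taken as pairs in the main fit. Correlations of the residuals of equally numbered RYGB and sham libraries ran from -0.28 to 0.28 and do not settle the pairing. Alternatives were another pseudocount, other minimums, a median ratio scaling, lane, a replicate block and leaving out each library. Expression in liver, fat and muscle was not analysed here.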

Additional observations from a re-analysis of the deposited data

Results flagged for a closer look

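Among 40 groups of 4 or 5 libraries of a gene, 4 held a library far from the others by Dixon's test at 95%, where chance gives about 2. Sst in the jejunum had sham replicate 4 far above the other sham libraries, at 43.5 CPM (ratio of the gap to the range 0.948 on the log2 scale), and without it the log2 fold change stayed below 0. Chga in the duodenum had sham replicate 4 at 110.6 CPM (ratio 0.879), the library that kept the gene from being called. Gcg in the jejunum had sham replicate 1 at 2.8 CPM, below the rest (ratio 0.841), and Gcg in the ileum had sham replicate 4 at 1.9 CPM, below the rest (ratio 0.721).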

How the results depend on the processing

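The number of the 10 genes called was 0, 1 and 1 in the duodenum, jejunum and ileum. With the replicate block it was 1 (Chga), 2 (Sst and Nts) and 0. Whether the numbers pair the libraries is not known, so these values are given only as an alternative. In the duodenum and jejunum sham replicate 4 has no RYGB library of its number. There the block gave the same fold changes as leaving out that library. Lane as a covariate gave 0 in the jejunum, where it is the same as leaving out RYGB replicate 2 for the fold change. Leaving out the duodenal sham replicates 1 and 4 gave 1 (Chga), an alternative added after the data had been seen, as was the fit without mitochondrial genes, which changed no count. Leaving out each library gave 0 to 1 in the duodenum, 0 to 2 in the jejunum and 0 to 3 in the ileum, where Gip and Ghrl joined Sst without RYGB replicate 4. Sst kept its direction under all alternatives run in the jejunum (-1.75 to -1.25) and ileum (-0.76 to -0.57). Each gene was compared in sham between duodenum and jejunum and between jejunum and ileum. The count of such comparisons without overlap was 3, and 3 to 6 when a library was left out. It was 6 without jejunal sham replicate 1 and 5 without jejunal sham replicate 2 or 4.

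Over all genes, calls were 1, 1058 and 650. When each library was left out in turn they ran from 0 to 757 in the duodenum (757 for sham replicate 4), from 462 to 1015 in the jejunum (462 for RYGB replicate 2, and 586 and 626 for sham replicates 3 and 1) and from 312 to 766 in the ileum (312, 385, 403 and 428 for sham replicates 3, 5, 1 and 4, and 327 for RYGB replicate 2). The replicate block gave 268 in the duodenum, and the fit without both sham replicates 1 and 4 gave 460. With lane the jejunum gave 469. A minimum of 10 CPM, under which fewer genes were tested, gave 664 in the jejunum and 333 in the ileum. In the ileum 27.1% of the called genes were higher, and 37.7% after median ratio scaling.

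The fold changes that changed sign were called under no alternative run, and the cause was not tested. In the duodenum the log2 fold change of Gcg was -0.044 with median ratio scaling and -0.030 without sham replicates 1 and 4, that of Chgb -0.016 with median ratio scaling and that of Nts 0.15 with the replicate block. In the jejunum Cck was at 0.10 with the replicate block and 0.17 with lane, and Sct at 0.014 with lane. Leaving out each library moved Gcg (-0.25 to 0.29), Cck (-0.18 to 0.18), Nts (-0.67 to 0.39) and Chgb (-0.037 to 0.25) across 0 in the duodenum, Gcg (-0.12 to 0.34), Cck (-0.45 to 0.18), Sct (-0.53 to 0.014), Chga (-0.24 to 0.29) and Chgb (-0.23 to 0.24) in the jejunum, and Nts (-0.11 to 0.30) in the ileum. Depth limits are unknown without counts, and the rounding to 0.1 CPM limits Pyy most.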
